A study of Homo sapiens with 16 samples.

Results

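The comparison set loss of MYBL1 against loss of MYBL2 in U2OS, a human osteosarcoma line, gene by gene. U2OS cells received small interfering RNA (siRNA), a short duplex that triggers breakdown of the transcript it matches, against MYBL1 (siMYBL1) or against MYBL2 (siMYBL2). Both were set against the same U2OS cells given a non-targeting siRNA (siCtrl), and RNA was collected 48 hours after treatment. Each group had 2 libraries, described as biological replicates, out of 16 libraries in the series. HCT116, a colorectal carcinoma line that received siRNAs named alike for 48 hours, served for comparison. The sources used here do not give the siRNA sequences or how many duplexes were used per target. For each gene, the authors' log2 fold change after siMYBL2 was subtracted from that after siMYBL1, so a positive difference means more transcript after siMYBL1 than after siMYBL2. The 14701 genes listed in both U2OS tables entered, of 14763 in the siMYBL1 table, 15478 in the siMYBL2 table and 19315 in any table of the series.

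MYBL1, also called A-MYB, and MYBL2, or B-MYB, bind DNA through similar MYB domains and regulate transcription. MYBL2 is expressed in most dividing cells and joins the MuvB complex, which with FOXM1 drives genes of G2 phase and mitosis, many of which carry a cell cycle homology region (CHR) in the promoter. MYBL1 is best known for its role in male meiosis and is found at lower levels in some tumour lines.

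The tables give 1 mean per comparison and no value per library, so no replicate value, SD or depth per library can be shown. Mean levels below are normalised counts implied by a table's base mean (over its 4 libraries) and fold change, with the siMYBL1 table rescaled by 1.05 so that the siCtrl means of both tables match in the median. The standard error (SE) of a difference is the root of the summed squared errors of both tables. Both tables use the same siCtrl libraries, so their errors are counted in both terms and this SE is likely too large. The siCtrl means implied by the 2 tables are not identical: over genes with base means of at least 100 they differed by a median of 0.02 in size on the log2 scale (SD of the difference 0.07), and by more for some genes, for a reason the sources used here do not give. A smaller SE, built from the share of the variance that the knockdown libraries alone imply, is given where it moves a count. Of the osteoblast and mesenchymal markers, 15 of 20 were listed in each U2OS table with base means summing to 85938 in the siMYBL1 table and 76489 in the siMYBL2 table, with COL1A1, SPARC and VIM among the most abundant. Of 20 epithelial markers, 8 were listed in the siMYBL1 table and 7 in the siMYBL2 table, with sums of 49657 and 54845, nearly all from KRT8 and KRT18; CDH1 was not listed in either. Of 16 blood cell markers, 2 were listed in the siMYBL1 table and 1 in the siMYBL2 table, with sums of 94.6 and 53.9.

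The targets were examined first. MYBL2, which lies on the forward strand of chromosome 20 between positions 43667019 and 43716495 of hg38, had a mean of 5131 normalised counts after siMYBL1, against 285 after siMYBL2, with 6289 and 6290 in siCtrl as the siMYBL1 and siMYBL2 tables imply. The authors' deposited tables gave it -0.29 (SE 0.19) after siMYBL1 and -4.47 (SE 0.18) after siMYBL2 on the log2 scale. The difference of 4.17 (SE 0.26, adjusted p = 5.76e-55, normal test with Benjamini-Hochberg adjustment over all 14701 genes) was the largest among the genes with base means of at least 100 that passed the test.

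MYBL1 (chromosome 8, positions 66562175 to 66614247, reverse strand) had a mean of 135 after siMYBL1 and 261 after siMYBL2. Its siCtrl mean came out at 267 from the siMYBL1 table and 302 from the siMYBL2 table. The authors' deposited tables placed it at -0.98 (SE 0.31, adjusted p = 0.0300) after siMYBL1 and -0.21 (SE 0.27, adjusted p = 0.879) after siMYBL2. The difference of -0.77 (SE 0.41) had an adjusted p of 0.498 by the normal test with Benjamini-Hochberg adjustment and did not pass; under the smaller SE its adjusted p was 0.0698. Because its siCtrl means do not match, the difference of fold changes is smaller than the printed means after siMYBL1 and siMYBL2 would give. The cells lost most of their MYBL2 transcript in the siMYBL2 arm, while the remaining MYBL1 transcript in the siMYBL1 arm was not separated from its level in the siMYBL2 arm. MYB, the third family member, differed by -0.30 (SE 0.65) and did not pass (adjusted p = 0.998, same test).

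Of the 14701 genes, 429 passed an adjusted p of 0.05 (2.92%), 326 of them higher after siMYBL1 than after siMYBL2 (2.22%) and 103 lower (0.701%). At an unadjusted p under 0.05 there were 1608. The smaller SE called 1588 (10.8%), 1027 higher (6.99%) and 561 lower (3.82%). The median difference was 0.02 over all genes and 0.03 over the 11893 genes with base means of at least 100 in both tables. Differences that passed ranged in size from 0.71 to 4.17 among the higher genes and from 0.81 to 3.10 among the lower ones. Protein-coding genes made up 303 of the higher and 101 of the lower genes, and long noncoding RNAs 21 and 2.

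Against siCtrl, the authors' deposited tables called 843 genes after siMYBL1 (5.71%; 3.44% higher and 2.27% lower) and 805 after siMYBL2 (5.2%; 1.69% higher and 3.51% lower). Of the 326, the authors' deposited tables called 111 higher than siCtrl after siMYBL1 and 202 lower than siCtrl after siMYBL2, with median fold changes of 0.44 and -0.81. Of the 103 lower genes, the authors' deposited tables called 72 lower than siCtrl after siMYBL1 and 22 higher than siCtrl after siMYBL2, with medians of -0.97 and 0.26. Since both tables use the same siCtrl libraries, these shares are a description.

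**Figure D1:**
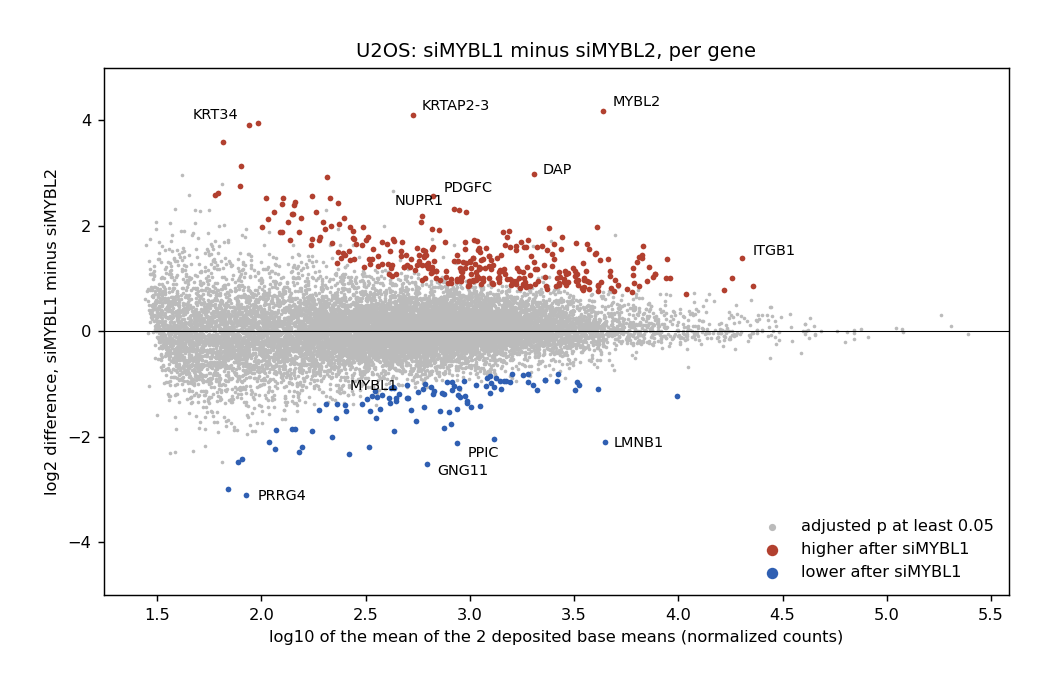
Each point is 1 gene of the U2OS tables, with the log10 mean of both deposited base means on the x axis and the log2 difference, siMYBL1 minus siMYBL2, on the y axis. Red points (326) were higher and blue points (103) lower after siMYBL1 at an adjusted p under 0.05; MYBL2 stands at 4.17 and LMNB1 at -2.10, and 2 genes lie beyond the plotted range of 5 in either direction.

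Among the lower genes, LMNB1, the gene of the nuclear envelope filament lamin B1, had a mean of 1194 after siMYBL1 and 5180 after siMYBL2, against 5834 and 5908 in siCtrl. The level after siMYBL2 was thus close to siCtrl. The difference of fold changes was -2.10, or 4.28-fold lower after siMYBL1 (SE 0.23, adjusted p = 1.09e-15, normal test with Benjamini-Hochberg adjustment). PPIC, a cyclophilin, averaged 267 after siMYBL1 and 1160 after siMYBL2 (difference -2.12, SE 0.29). PDCD5, named for its link to programmed cell death, averaged 426 after siMYBL1 and 1659 after siMYBL2 (-2.04, SE 0.32). ENPP4, a cell surface nucleotide hydrolase, averaged 99.0 after siMYBL1 and 455 after siMYBL2 (-2.20, SE 0.38). In these 4 genes the siMYBL2 level lay near that of siCtrl, with authors' deposited fold changes between -0.19 and 0.22, none of which passed in the authors' deposited table.

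The other 6 of the 10 lower genes with the largest differences at base means of at least 100 stood above siCtrl after siMYBL2. GNG11, a G protein gamma subunit, averaged 241 after siMYBL1 and 1387 after siMYBL2, against 445 in siCtrl by both tables (difference -2.52, SE 0.33, adjusted p = 2.05e-11, normal test with Benjamini-Hochberg adjustment). TGFBR3, the TGF-beta co-receptor betaglycan, averaged 94.2 after siMYBL1 and 480 after siMYBL2 (-2.33, SE 0.43). LPL, lipoprotein lipase, averaged 104 after siMYBL1 and 382 after siMYBL2 (-2.01, SE 0.43). DHRS3, a retinaldehyde reductase, averaged 227 after siMYBL1 and 899 after siMYBL2 (-1.88, SE 0.36), and CADM3, a cell adhesion molecule, 398 after siMYBL1 and 1422 after siMYBL2 (-1.83, SE 0.29). CCNE2, cyclin E2, which works at entry into S phase, averaged 91.3 after siMYBL1 and 328 after siMYBL2 (-1.90, SE 0.48). The authors' deposited table called all 6 higher than siCtrl after siMYBL2, between 0.93 for TGFBR3 and 1.64 for GNG11.

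Short words in the 3′ untranslated regions (UTRs) were then described, since siRNAs in general can also lower transcripts whose 3′ UTR pairs with their first bases. The principal transcript of each gene in GENCODE release 29 gave the UTR. Each 7-mer held by at least 500 genes (a minimum chosen after the data were seen) was ranked in HCT116 alone, by the mean siMYBL1-minus-siMYBL2 difference of genes holding it minus that of genes lacking it. Among 11230 7-mers over 11939 HCT116 genes, GAACTTA ranked lowest (-0.12 over 1036 genes) and CCTTACA highest (0.11 over 902 genes), and both held these places when the longest UTR per gene was used. The U2OS values below did not enter the ranking. The labels name the siRNAs alike in both lines, so the lines may share duplexes and are not independent in what those can bind. LMNB1, PPIC, PDCD5 and ENPP4, 4 of the 10 lower genes with the largest differences, each hold GAACTTA once. They are shown as genes that passed and hold the word, by smallest adjusted p. Their HCT116 differences, -1.19 for LMNB1, -1.60 for PPIC, -0.82 for PDCD5 and -0.88 for ENPP4, were among those that ranked the word. These 4 genes are therefore examples and not an independent check of the word. The word is in capitals in 30 bases of the hg38 transcript strand.
LMNB1 (chr5:126836469-126836498, forward strand): ttattgacactGAACTTAataactgtgtac
PPIC (chr5:123023650-123023679, reverse strand): ttagggactttGAACTTAaatatatcccct
PDCD5 (chr19:32587311-32587340, forward strand): ctcacagactaGAACTTAacggaacaagtc
ENPP4 (chr6:46143734-46143763, forward strand): tgaaagacaaaGAACTTAgactaagcatgt

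In U2OS, 1115 of 12596 genes with a UTR held GAACTTA (8.85%). Of these, 39 were lower (3.50%) and 13 higher (1.17%), with a median difference of -0.11. Of the 11481 genes lacking it, 62 were lower (0.540%) and 287 higher (2.50%), with a median of 0.03. Holders had longer UTRs, with a median of 3117 bases against 1026, and among genes with UTRs of at least the median length the lower shares were 2.69% of 967 holders and 0.693% of 5337 others. Among the 101 lower genes with a UTR, 39 held GAACTTA (38.6%). GNG11, TGFBR3, LPL, CCNE2, DHRS3 and CADM3 did not. Nor did HMMR, a lower gene whose level after siMYBL2 was near siCtrl (0.06, SE 0.18, in the authors' deposited table). Whether either siRNA pairs with these words was not tested.

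The higher genes were led by MYBL2 itself. DAP, death-associated protein, averaged 3208 after siMYBL1 and 388 after siMYBL2, against 2438 and 2345 in siCtrl (difference 2.99, SE 0.26, adjusted p = 1.29e-27, normal test with Benjamini-Hochberg adjustment). Its level was near siCtrl after siMYBL1 and low after siMYBL2, with -2.59 (SE 0.19) after siMYBL2 in the authors' deposited table. PDGFC, a growth factor of the PDGF family, showed the other pattern, with 1618 after siMYBL1 and 287 after siMYBL2, against 412 and 432 in siCtrl (2.57, SE 0.37). In the authors' deposited tables PDGFC had 1.97 (SE 0.26) after siMYBL1 and -0.59 (SE 0.26) after siMYBL2, of which only the siMYBL1 value passed. KRTAP2-3, a hair keratin-associated protein gene with near-identical neighbours whose value is therefore uncertain, averaged 1534 after siMYBL1 and 89.5 after siMYBL2 (4.10, SE 0.40).

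Keratin genes followed. KRT34, a hair keratin with a base mean of 160 in the siMYBL1 table and 32.4 in the siMYBL2 table, averaged 290 after siMYBL1 and 18.7 after siMYBL2, with 46.2 and 46.1 in siCtrl (3.95, SE 0.80, adjusted p = 0.000135, normal test with Benjamini-Hochberg adjustment). KRT14, of basal epithelium, averaged 346 after siMYBL1 and 52.6 after siMYBL2 (2.56, SE 0.58), and KRT75, of hair follicles, 1390 after siMYBL1 and 280 after siMYBL2 (2.31, SE 0.36). Of the 9 keratins on the list, KRT34 and KRT17 were higher (22.2%, beside 2.22% of all genes) and none was lower, with a median of 0.07. KRT14 and KRT75 are not on that list. KRT17 (1.08, SE 0.34) no longer passed after centring on the median difference (adjusted p = 0.0591, same test). ZNF468, a zinc finger gene, averaged 456 after siMYBL1 and 82.4 after siMYBL2 (2.44, SE 0.48). The long noncoding genes ENSG00000289754 and ENSG00000286966 differed by 2.92 (SE 0.51) and 2.45 (SE 0.52). ENSG00000289754 overlaps NUPR1 on the same strand, so their values are not independent.

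Genes holding the higher-ranked word CCTTACA include DAP and 3 genes of lysosomes or retinol metabolism that passed in both lines. LAMP1, a lysosomal membrane protein, averaged 5672 after siMYBL1 and 1457 after siMYBL2 (difference 1.98, SE 0.23), LIPA, lysosomal acid lipase, 1390 after siMYBL1 and 272 after siMYBL2 (2.30, SE 0.29), and RDH11, a retinol dehydrogenase, 5408 after siMYBL1 and 1689 after siMYBL2 (1.66, SE 0.23). These 3 were picked for their sites after their values were seen. Their HCT116 values, and that of DAP, were among those that ranked the word. The word is in capitals in 30 bases of the hg38 transcript strand.
DAP (chr5:10680901-10680930, reverse strand): tctgtcctttgCCTTACAtttccatattta
LAMP1 (chr13:113322953-113322982, forward strand): tcagatttaagCCTTACAaagggaaagcct
LIPA (chr10:89213732-89213761, reverse strand): cagcatcatttCCTTACAatactgtccggt
RDH11 (chr14:67677241-67677270, reverse strand): ttggggcatttCCTTACAttgtcttgacaa

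In U2OS, 976 genes held CCTTACA (7.75%). Of these, 58 were higher (5.94%) and 8 lower (0.820%), with a median difference of 0.11, against 2.08% higher and 0.800% lower of 11620 genes lacking it, with a median of 0.02. The holders' median fold change was 0.04 after siMYBL1 and -0.08 after siMYBL2 in the authors' deposited tables. UTR length differed here too, at 3096 bases for holders and 1034 for the others, and among UTRs of at least the median length 5.71% of 858 holders and 2.41% of 5446 others were higher. Of the 300 higher genes with a UTR, 58 held CCTTACA (19.3%). MYBL2 held neither word. Over the 10711 genes with neither word, 237 were higher (2.21%) and 57 lower (0.532%), so most calls in both directions lie outside the genes holding these words.

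**Figure D2:**
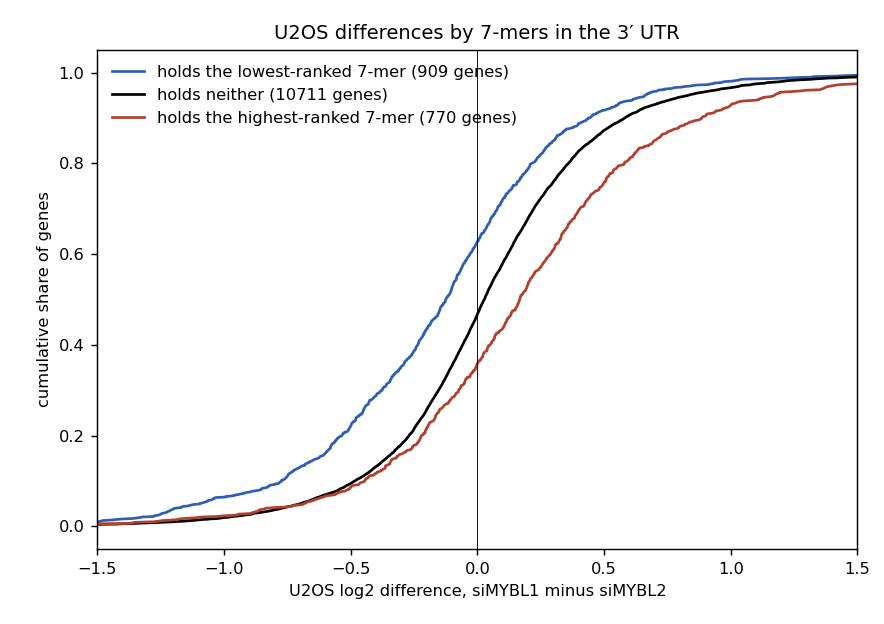
Cumulative share of U2OS genes (y axis) by log2 difference, siMYBL1 minus siMYBL2 (x axis), for 909 genes holding only GAACTTA (blue), 10711 holding neither word (black) and 770 holding only CCTTACA (red). The medians are -0.12, 0.03 and 0.17 in that order; 206 genes with both words are not drawn.

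Most genes of G2 phase and mitosis did not pass between the siRNAs, though the share that passed was above that of all genes. Of 121 genes on 5 lists, 6 were higher and 2 lower after siMYBL1 than after siMYBL2 (6.61%, beside 2.92% of all genes), and their median difference was 0.08, beside 0.02 for all genes. Against siCtrl, the authors' deposited tables called 35 of the 121 lower after siMYBL1, beside 2.27% of all genes. After siMYBL2, 50 of the 121 were called lower, beside 3.51% of all genes, and none was higher after either. The median fold change of the 121 was -0.42 after siMYBL1 and -0.47 after siMYBL2 in the authors' deposited tables, which share siCtrl. The smaller SE gave 15 higher and 7 lower (18.2%, beside 10.8% of all genes).

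Among mitotic kinases, cyclins and CDC25 phosphatases, 3 of 25 were higher after siMYBL1 (12%, beside 2.22% of all genes) and none lower, with a median of 0.13. CKS1B, a subunit that binds cyclin-dependent kinases, averaged 2588 after siMYBL1 and 847 after siMYBL2, against 2863 and 2877 in siCtrl (difference 1.62, SE 0.24, adjusted p = 2.65e-08, normal test with Benjamini-Hochberg adjustment). CCNB1, cyclin B1 of the kinase that starts mitosis, averaged 4984 after siMYBL1 and 2960 after siMYBL2, against 6102 and 6190 in siCtrl (0.77, SE 0.22). CCNF, an F-box cyclin that marks proteins for breakdown, averaged 1778 after siMYBL1 and 950 after siMYBL2 (0.89, SE 0.25). The fold changes of these 3 after siMYBL1 did not pass, and those after siMYBL2 passed, in the authors' deposited tables. CDK1, the kinase of cyclin B1, differed by -0.08 (SE 0.28), PLK1 by 0.20 (SE 0.24) and AURKA by -0.53 (SE 0.28), and none of these mitotic kinases passed. FOXM1, the transcription factor, differed by 0.13 (SE 0.26) and TOP2A, the topoisomerase, by 0.42 (SE 0.23), and neither passed.

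Of 35 spindle, kinesin and cytokinesis genes, 2 were higher and 1 lower (8.57%, beside 2.92% of all genes), with a median of 0.19. DEPDC1B, a regulator of cell detachment at mitotic entry, averaged 1080 after siMYBL1 and 335 after siMYBL2 (1.68, SE 0.29, adjusted p = 1.32e-06, normal test with Benjamini-Hochberg adjustment). DLGAP5, which stabilises spindle microtubules, averaged 3097 after siMYBL1 and 1615 after siMYBL2 (0.95, SE 0.24). HMMR, also a spindle protein, went the other way, with 782 after siMYBL1 and 1711 after siMYBL2, against 1613 and 1646 in siCtrl (-1.10, SE 0.26). Of 29 kinetochore and checkpoint genes, 1 was higher and 1 lower (6.90%, beside 2.92% of all genes), with a median of -0.10. CENPE, the kinesin that moves chromosomes to the spindle equator, averaged 1738 after siMYBL1 and 826 after siMYBL2 (1.13, SE 0.26); its UTR held CCTTACA. OIP5, which helps load the centromeric histone CENP-A, averaged 188 after siMYBL1 and 516 after siMYBL2, against 726 and 711 in siCtrl (-1.49, SE 0.40); its UTR held GAACTTA. None of 17 genes of the anaphase-promoting complex and its substrates and none of 15 condensin, topoisomerase and chromosome genes passed, with medians of 0.14 and -0.15; at an unadjusted p under 0.05 there were 1 and 2, the numbers that the smaller SE called.

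The CHR motif (TTTGAA or TTCGAA, searched on both strands; TTCGAA reads the same on both) was in the promoter window, 250 bases before to 50 after the start, of 70 of the 101 G2/M genes with a RefSeq promoter (69.3%) and of 16.6% of all 27305 promoters. Of the 8 G2/M genes that differed, 6 had it, among them genes that were higher and genes that were lower. Of the 6, 4 are shown in 30 bases of GRCh38.p14 on the gene's strand, with 1 match per gene in capitals.
CKS1B, higher (chr1:154974639-154974668, forward strand): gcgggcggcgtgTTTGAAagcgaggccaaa
DEPDC1B, higher (chr5:60700147-60700176, reverse strand): gcgggcttgggaTTCAAActgctgctcctc
HMMR, lower (chr5:163460598-163460627, forward strand): gggagatttgaaTTTGAAaccggtagggag
OIP5, lower (chr15:41332573-41332602, reverse strand): gcctggcgtgtaTTCGAAaggaaggcgccg
In DEPDC1B the match is the reverse complement. HMMR has 2 matches in the window, of which the other lies directly before the one in capitals. OIP5 has 1 site, TTCGAA, which was counted on both strands. DLGAP5 and CCNF, both higher, have 3 matches each by the same count, which may include a TTCGAA site counted on both strands. A match is a description of these letters, not of binding.

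Of 60 replication and E2F target genes of the G1/S transition, CCNE2 was lower and none was higher after siMYBL1 than after siMYBL2, with 45 of 60 differences negative and a median of -0.24; 1 of 60 is 1.67%, beside 2.92% of all genes. The smaller SE called 10 lower and 2 higher (20%, beside 10.8% of all genes), with ATAD2, PRIM1 and E2F1 next after CCNE2 and UHRF1 and TK1 higher. Of 17 MuvB, DREAM, MYB and pocket protein genes, RB1, the retinoblastoma repressor, was lower, with 378 after siMYBL1 and 841 after siMYBL2, against 888 and 883 in siCtrl (-1.16, SE 0.30, adjusted p = 0.00570, normal test with Benjamini-Hochberg adjustment). RB1 alone makes 5.88% of the list, beside 2.92% of all genes. The RB1 UTR held GAACTTA. Under the smaller SE, E2F6 and E2F4 were higher and TFDP1 and LIN52 lower besides RB1 (29.4%, beside 10.8% of all genes).

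Of 33 p53 targets, TNFRSF10B, a death receptor, was higher (1.09, SE 0.30, adjusted p = 0.0124, normal test with Benjamini-Hochberg adjustment). None was lower, and the median was 0.22. TNFRSF10B alone makes 3.03% of the list, beside 2.22% of all genes. The smaller SE added GADD45A, which made 6.06%, beside 6.99% of all genes. The TNFRSF10B UTR held CCTTACA. CDKN1A, the p53-induced kinase inhibitor, averaged 7333 after siMYBL1 and 4911 after siMYBL2, against 3778 and 3670 in siCtrl. Its difference of 0.54 had an SE of 0.90, far above the median SE of 0.31, and did not pass.

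Amino acid stress genes were among the higher genes. Of 32 genes of the ATF4 pathway, the programme that cells switch on when amino acids run short or the endoplasmic reticulum (ER) is stressed, 12 were higher after siMYBL1 than after siMYBL2 (37.5%, beside 2.22% of all genes) and none lower. The median difference was 0.96, and 31 of the 32 were positive. Under the smaller SE, 24 of the 32 were higher (75%, beside 6.99% of all genes). The authors' deposited tables called 18 of the 32 higher than siCtrl after siMYBL1, with a median of 0.91. After siMYBL2 they called 2 higher and 3 lower than siCtrl, with a median of -0.18. Of all genes, they called 3.44% higher after siMYBL1, and 1.69% higher and 3.51% lower after siMYBL2.

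CHAC1, which degrades glutathione, averaged 509 after siMYBL1 and 87.8 after siMYBL2, against 143 and 143 in siCtrl (2.53, SE 0.53). NUPR1, a stress-induced chromatin protein, averaged 2132 after siMYBL1 and 442 after siMYBL2, against 711 and 706 in siCtrl (2.26, SE 0.30, adjusted p = 1.84e-10, normal test with Benjamini-Hochberg adjustment). DDIT4, an inhibitor of the growth kinase complex mTORC1, averaged 2313 after siMYBL1 and 703 after siMYBL2 (1.71, SE 0.34), and asparagine synthetase, ASNS, 3498 after siMYBL1 and 1108 after siMYBL2 (1.60, SE 0.33). The others that passed were SLC7A11 (1.55), SLC7A1 (1.17), PCK2 (1.33), PSAT1 (1.27), SARS1 (0.93), GARS1 (0.93), DDIT3 (1.68) and ATF5 (0.92). Apart from PCK2, these serve amino acid transport, serine and glycine supply, tRNA charging and transcription. ATF4 itself, controlled mainly in translation, differed by 0.71 (SE 0.23) and did not pass (adjusted p = 0.0604, same test).

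The C/EBP-ATF response element TGATGNAA (CARE, searched on both strands and added after the data were seen) was in 5 of 26 ATF4-list promoters and in 3.67% of all. Of the 10 genes that passed and have a window, 3 held it, shown in capitals in 30 bases of GRCh38.p14 on the gene's strand.
ASNS (chr7:97872458-97872487, reverse strand): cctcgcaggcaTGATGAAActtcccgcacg
CHAC1 (chr15:40953251-40953280, forward strand): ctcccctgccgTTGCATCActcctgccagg
SLC7A1 (chr13:29595663-29595692, reverse strand): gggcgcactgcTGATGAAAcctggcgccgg
In CHAC1 the match is the reverse complement. Of the ATF4 list, 29 genes held neither 7-mer in the UTR, and 10 of these were higher, with a median of 0.93. Of all genes holding neither, 2.21% were higher, with a median of 0.03.

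Of 24 genes of the unfolded protein response, which expands the folding capacity of the ER, 4 were higher (16.7%, beside 2.22% of all genes) and none lower, with a median of 0.52. HERPUD1, which serves ER-associated degradation, averaged 2274 after siMYBL1 and 744 after siMYBL2, against 791 and 775 in siCtrl (1.58, SE 0.33, adjusted p = 0.000241, normal test with Benjamini-Hochberg adjustment). XBP1, a transcription factor of the response, averaged 2683 after siMYBL1 and 1222 after siMYBL2 (1.15, SE 0.29). The folding enzymes and chaperones PDIA4 and HSP90B1 differed by 1.08 (SE 0.28) and 0.78 (SE 0.22). HSPA5, the chaperone BiP, differed by 0.56 (SE 0.22) and did not pass; it was among 11 higher under the smaller SE, which called 6.99% of all genes higher.

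Of 24 cholesterol synthesis genes, 11 were higher after siMYBL1 than after siMYBL2 (45.8%, beside 2.22% of all genes) and none lower, with 23 of 24 positive and a median of 0.72. HMGCS1, which makes HMG-CoA, averaged 14387 after siMYBL1 and 5520 after siMYBL2, against 8272 and 8239 in siCtrl (1.38, SE 0.23, adjusted p = 7.06e-07, normal test with Benjamini-Hochberg adjustment). It was thus above siCtrl in the siMYBL1 arm and below it in the siMYBL2 arm, and the authors' deposited tables called it in opposite directions.

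DHCR7 differed by 0.97, CYP51A1 by 1.04, MVD by 0.95, LSS by 0.78 and EBP by 0.83, all enzymes of the pathway, as is MSMO1, which also passed as higher. ACAT2, which makes an early precursor, differed by 0.92 and INSIG1, the ER anchor that restrains the pathway when sterols are plentiful, by 0.86. Over the list, median fold changes were 0.37 after siMYBL1 and -0.29 after siMYBL2 in the authors' deposited tables. These called 7 of the 24 higher after siMYBL1, beside 3.44% of all genes, and 4 lower after siMYBL2, beside 3.51%. Under the smaller SE, 17 were higher and PMVK was lower (75%, beside 10.8% of all genes). The sterol regulatory element TCACNCCAC (both strands, added after the data were seen) was in 1 of 18 of these promoter windows and in 1.15% of all; of the 8 genes that passed and have a window, 0 held it. Of the list, 21 genes held neither 7-mer, and 10 of these were higher, with a median of 0.74. Beside this, 2.21% of all genes holding neither were higher, with a median of 0.03.

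**Figure D3:**
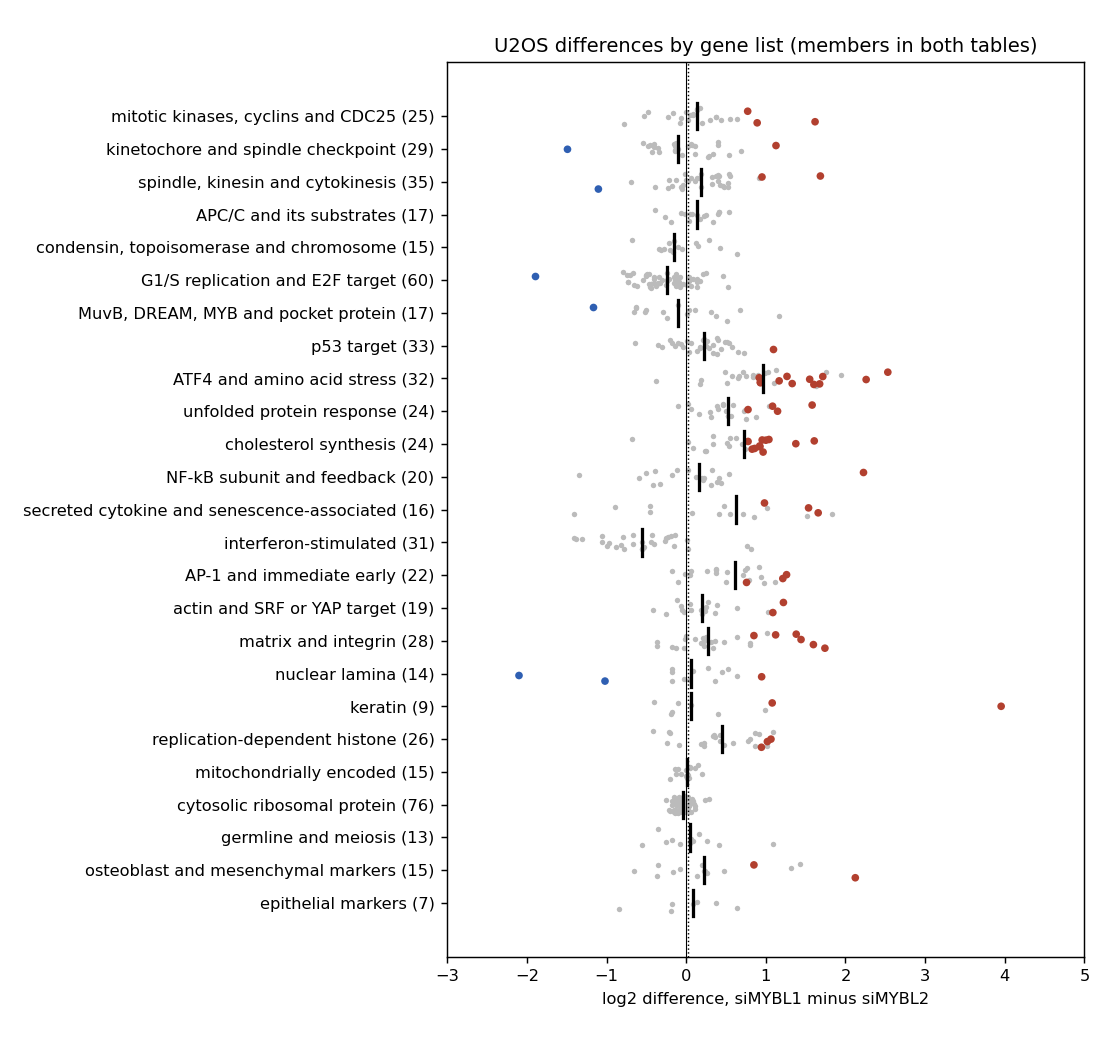
Log2 difference, siMYBL1 minus siMYBL2, of each listed gene in both U2OS tables (x axis), by gene list with the number of genes in brackets. Red and blue points passed as higher and lower, black bars are list medians, the dotted line is the median of all genes at 0.02, and the histone gene H2AC19 lies outside the range; 12 of 32 ATF4 and 11 of 24 cholesterol genes are red.

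Matrix and adhesion genes included 6 of 28 higher (21.4%, beside 2.22% of all genes) and none lower, with a median of 0.28; the smaller SE called 10, and 6.99% of all genes, higher. ITGB1, the integrin beta-1 chain, averaged 27477 after siMYBL1 and 10563 after siMYBL2, against 22533 and 22572 in siCtrl (1.38, SE 0.22, adjusted p = 3.16e-07, normal test with Benjamini-Hochberg adjustment). ITGA3, an alpha chain that pairs with it, averaged 11133 after siMYBL1 and 4002 after siMYBL2, against 6344 and 6196 in siCtrl (1.44, SE 0.26); its UTR held CCTTACA. THBS1, the matrix protein thrombospondin-1, differed by 1.60 (SE 0.30), and the laminin chains LAMB3 and LAMA4 by 1.12 (SE 0.25) and 1.74 (SE 0.41). COL1A1, the main collagen of bone, averaged 34958 after siMYBL1 and 18468 after siMYBL2, against 21010 and 20015 in siCtrl (0.85, SE 0.25). With SNAI2, the transcription factor Slug (2.12, SE 0.61), it made 2 of 15 osteoblast and mesenchymal markers higher (13.3%, beside 2.22% of all genes) and none lower. None of 7 epithelial markers passed, also at an unadjusted p under 0.05.

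Among actin and SRF or YAP target genes, 2 of 19 were higher (10.5%, beside 2.22% of all genes) and none lower. They were CNN1 (calponin, 1.22, SE 0.32) and CCN1 (1.09, SE 0.29). The smaller SE called 4 higher (21.1%, beside 6.99% of all genes). Of 22 AP-1 and immediate early genes, 3 were higher (13.6%, beside 2.22% of all genes) and none lower, with a median of 0.61. These were PHLDA1 (1.21, SE 0.28), MYC (1.26, SE 0.29) and FOSL2 (0.76, SE 0.24). The smaller SE called 7 higher (31.8%, beside 6.99% of all genes). After centring, FOSL2 no longer passed (adjusted p = 0.0622, normal test with Benjamini-Hochberg adjustment), which left 2. Of 16 secreted factors, 3 were higher (18.75%, beside 2.22% of all genes) and none lower, with a median of 0.63. The smaller SE called 7 higher and 1 lower (50%, beside 10.8% of all genes). INHBA, an activin subunit, averaged 3433 after siMYBL1 and 1234 after siMYBL2, against 1069 and 1115 in siCtrl (1.54, SE 0.28, adjusted p = 9.81e-06, normal test with Benjamini-Hochberg adjustment). TNFRSF11B, the decoy receptor osteoprotegerin (1.66, SE 0.47), and PLAUR, the urokinase receptor (0.98, SE 0.29), were the other secreted-factor genes to pass. Of 20 NF-kB genes, TRAF1, a signalling adaptor of TNF receptors, was higher (2.22, SE 0.61). Its siCtrl mean was 53.3 and 51.5 by the siMYBL1 and siMYBL2 tables. TRAF1 alone makes 5% of the list, beside 2.22% of all genes. The smaller SE called BIRC2 higher and BCL3 lower as well, which made 15% of the list, beside 10.8% of all genes.

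Of 14 nuclear lamina genes, 1 was higher and 2 were lower (21.4%, beside 2.92% of all genes), with a median of 0.06. Besides LMNB1, SYNE2, which links the nucleus to the cytoskeleton, was lower (-1.02, SE 0.24), with 1547 after siMYBL1 and 2890 after siMYBL2, against 1948 and 1795 in siCtrl. SUN2, its partner across the nuclear envelope, was higher (0.95, SE 0.24), with 2168 after siMYBL1 and 1095 after siMYBL2. The SYNE2 and SUN2 UTRs held neither word. Of 26 replication-dependent histone genes, 3 were higher (11.5%, beside 2.22% of all genes) and none lower. They were H2BC12 (1.06, SE 0.22), H1-2 (1.02, SE 0.29) and H2AC6 (0.94, SE 0.28). The smaller SE called 7 higher (26.9%, beside 6.99% of all genes). Histone genes have near-identical copies and the values are uncertain. None of 31 interferon-stimulated genes passed, although 27 were negative, with a median of -0.55. IFIT1 was nearest at -1.38 (adjusted p = 0.0532, normal test with Benjamini-Hochberg adjustment). At an unadjusted p under 0.05 there were 6, and the smaller SE called 6 lower (19.4%, beside 3.82% of all genes). No gene passed among 15 mitochondrially encoded, 76 ribosomal protein and 13 germline genes, under either SE or at an unadjusted p under 0.05, and their medians were 0.02, -0.04 and 0.04.

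**Figure D4:**
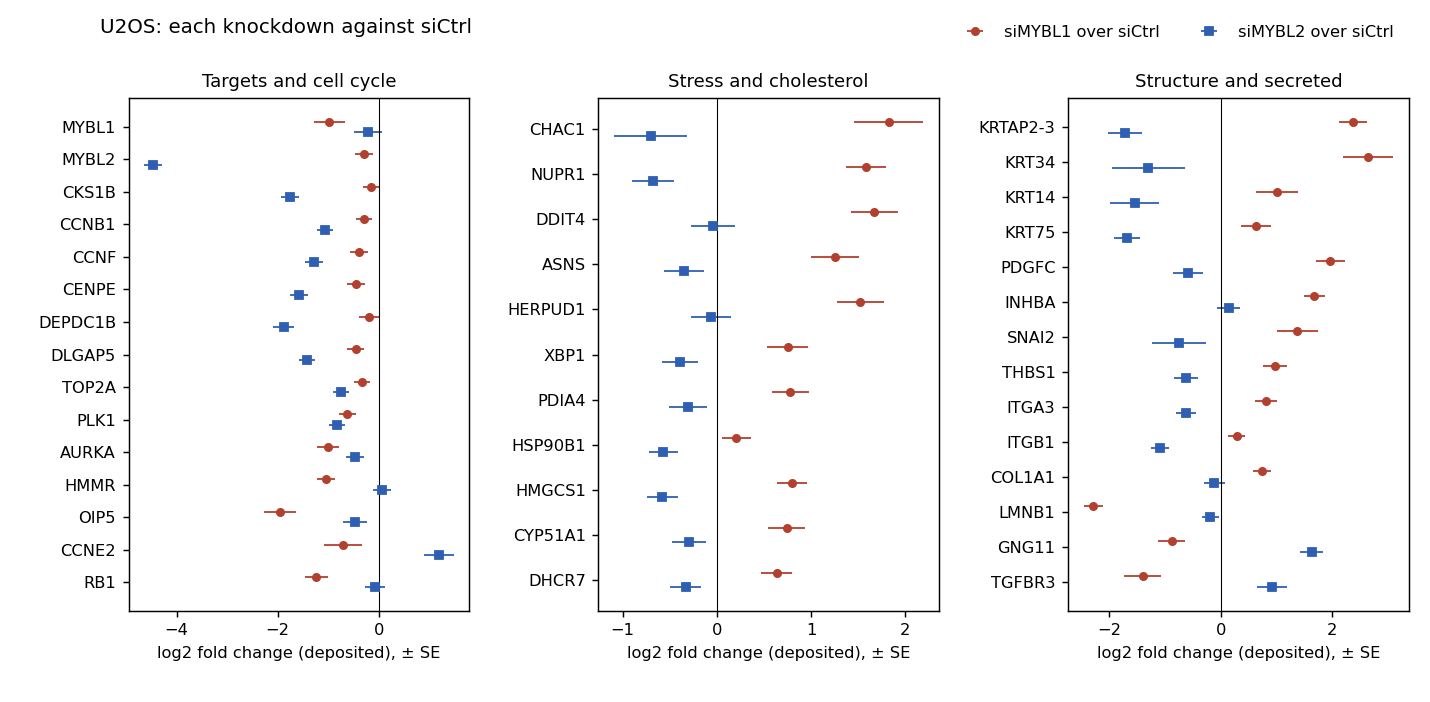
Authors' deposited log2 fold change over siCtrl, with its SE as the bar, after siMYBL1 (red circles) and after siMYBL2 (blue squares) for named genes in 3 groups. NUPR1, HMGCS1 and ITGA3 lie on opposite sides of 0, LMNB1 stands at -2.29 after siMYBL1 and -0.19 after siMYBL2, and after siMYBL2 CKS1B and DEPDC1B stand at -1.76 and -1.88.

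Opposite calls against siCtrl were found in 25 of the 429 genes, 20 higher and 5 lower after siMYBL1. Besides GNG11, NUPR1 and KRTAP2-3, those with the smallest adjusted p include RAB11FIP5 and NGRN. RAB11FIP5, an effector of recycling endosomes, averaged 2239 after siMYBL1 and 728 after siMYBL2, against 1530 and 1552 in siCtrl (1.64, SE 0.25). NGRN, neugrin, averaged 2880 after siMYBL1 and 743 after siMYBL2, against 1398 and 1354 in siCtrl (1.91, SE 0.29, adjusted p = 3.15e-08, normal test with Benjamini-Hochberg adjustment). Its UTR held both 7-mers. The 5 lower genes with opposite calls were GNG11, TGFBR3, LPL, PRRG4 and PPP2R2B.

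The same difference was computed in HCT116, where 66 of 13387 genes passed (0.493%), 52 higher (0.388%) and 14 lower (0.105%). The median SE of genes with base means of at least 100 was 0.31 in U2OS and 0.28 in HCT116. Of the 372 U2OS genes that passed and were listed in all 4 single-knockdown tables, 340 had the same sign in HCT116, and 45 passed in both lines, all in the same direction (39 higher and 6 lower). The 45 are 12.1% of the U2OS genes and 71.4% of the 63 HCT116 genes. The 284 higher genes had a median difference of 1.20 in U2OS and 0.50 in HCT116, and the 88 lower genes -1.19 in U2OS and -0.45 in HCT116, beside an HCT116 median of 0.03 over all genes in the 4 tables; the U2OS values chose these genes. The 6 lower in both lines were PPIC, LMNB1, GINM1, USP46, TAGLN2 and ATXN7L3B, and all 6 UTRs held GAACTTA, a word that was ranked with the HCT116 values. Of 33 higher in both lines with a UTR, 15 held CCTTACA, which was also ranked with the HCT116 values. Over all U2OS genes with a UTR, 8.85% held GAACTTA and 7.75% held CCTTACA.

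Among G2/M genes CKS1B, DEPDC1B and CCNF passed in both lines, with 1.62 in U2OS and 1.01 in HCT116 for CKS1B, 1.68 in U2OS and 1.11 in HCT116 for DEPDC1B, and 0.89 in U2OS and 0.86 in HCT116 for CCNF. The 121 G2/M genes had a median of 0.08 in U2OS and 0.28 in HCT116. The ATF4 list had a median of 0.96 in U2OS and 0.41 over its 29 genes in HCT116, with 12 passing in U2OS and 2 in HCT116. Cholesterol genes had 0.72 in U2OS and 0.15 in HCT116, with 11 of 24 passing in U2OS and 1 of 24 in HCT116. Of all genes, 2.92% passed in U2OS and 0.493% in HCT116. The difference between lines was tested per gene, and no gene of any list passed that test.

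The test of the U2OS difference minus the HCT116 difference called 4 of 12380 genes (0.0323%), all higher in U2OS, with 311 at an unadjusted p under 0.05. PDGFC differed by 2.57 (SE 0.37) in U2OS and -0.27 (SE 0.39) in HCT116, a gap of 2.83 (SE 0.54, adjusted p = 0.00164, normal test with Benjamini-Hochberg adjustment). CITED2, a transcriptional coregulator, averaged 1244 after siMYBL1 and 336 after siMYBL2 in U2OS, against 674 and 687 in siCtrl. Its difference was 1.92 (SE 0.32) in U2OS and 0.03 (SE 0.28) in HCT116, a gap of 1.89 (SE 0.42, adjusted p = 0.0343, same test). DAP differed by 2.99 in U2OS and 1.36 in HCT116, passing in both, with a gap of 1.63 (SE 0.37, adjusted p = 0.0343). These 3 have base means of at least 100 in all 4 tables.

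**Figure D5:**
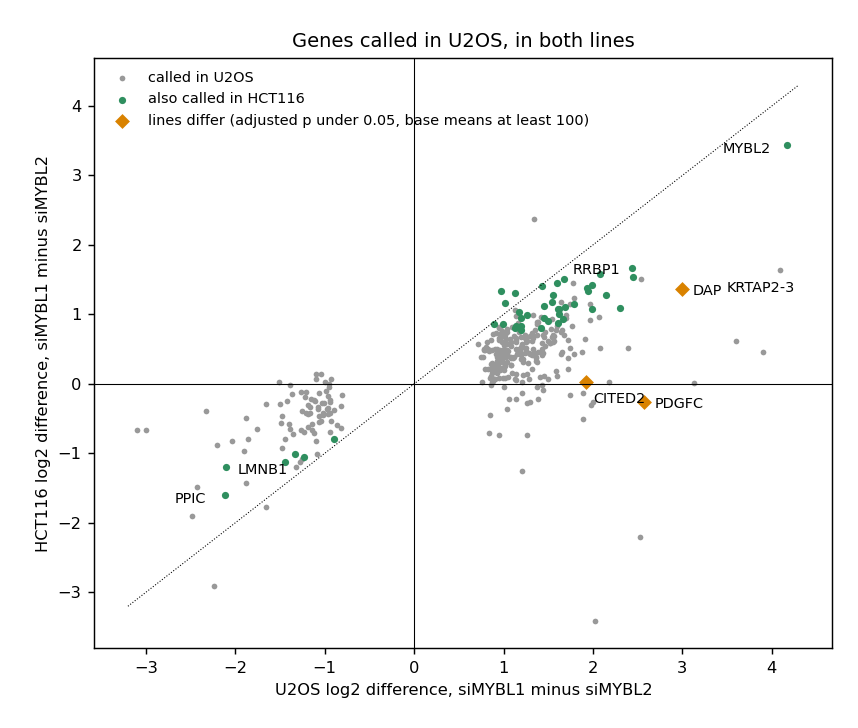
Log2 difference, siMYBL1 minus siMYBL2, in U2OS (x axis) and HCT116 (y axis) for the 372 genes that passed in U2OS and were listed in all 4 tables; the dotted line marks equal values. Green points (45, of which DAP is drawn as a diamond) also passed in HCT116, and orange diamonds mark DAP, CITED2 and PDGFC, whose difference between lines passed at base means of at least 100 in all 4 tables; most points lie nearer 0 in HCT116.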

How the data were processed

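Per the submitters' processing notes, reads were handled with cutadapt 4.4, Salmon 1.10.1 and DESeq2 1.40 on hg38; the notes give no order, settings or annotation. The data used were the authors' own comparison tables of single knockdowns over siCtrl, 2 for U2OS and 2 for HCT116, which hold no values per library. Per the file headers, base means were deposited as a signal that averages normalised counts over 4 libraries. The deposited fold change and its error are on the log2 scale, and the deposited Wald statistic is a score that matched their ratio. The authors' p-values matched a 2-sided normal test of that score, and their adjusted p-values the Benjamini-Hochberg adjustment. Summed base means were 17518487 (siMYBL1) and 17821908 (siMYBL2) in U2OS. Library depth is unknown here, and nothing beyond the label says that replicates came from separate cultures.

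Per gene, the siMYBL1 fold change minus the siMYBL2 fold change was divided by the root of the summed squared errors and given a 2-sided normal p, adjusted by Benjamini-Hochberg over all 14701 genes (threshold 0.05). The planned fits to counts need values per library and were replaced by this test. The line test used all 4 errors. Scripts ran in Python 3.11.15 with scipy 1.17.1 and were tested on simulated data.

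The comparison and the 26 gene lists (745 genes) were chosen with earlier results of these data known, and list counts are descriptions. Genes listed in both tables were counted, and 130 list entries were not. Named were MYB, MYBL1, MYBL2, LMNB1, FOXM1, CDK1, CCNB1, PLK1, AURKA, TOP2A and CDKN1A; the largest differences that passed at base means of 100 or more, 10 per direction; up to 4 genes per list by adjusted p; up to 6 per direction of the line test; and up to 6 with opposite calls. Others were named after their values were seen. A few genes taken by these rules are not reported here. UTRs and gene coordinates come from GENCODE release 29 and the tables, promoters from RefSeq (GRCh38.p14).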

Additional observations from a re-analysis of the deposited data

Results flagged for a closer look

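For 3 genes with base means of at least 100 in all 4 tables, the siMYBL1-minus-siMYBL2 difference itself differed between the lines by the normal test with Benjamini-Hochberg adjustment. The U2OS difference minus the HCT116 difference was 2.83 for PDGFC, 1.89 for CITED2 and 1.63 for DAP.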

How the results depend on the processing

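No paired analysis was possible because the tables hold no values per library; for the same reason, leaving out replicates and count fits with DESeq2 or edgeR were not run. The count of 429 U2OS genes depends on the error. Halving the summed squared errors gave 1597 genes and the knockdown share of the variance 1588, with 64.6% and 64.7% higher against 76.0%; a threshold of 0.01 gave 238. It was 417 with base means of at least 100, 412 after centring on the median (71.8% higher), 333 with an absolute difference of at least 1 and 417 from implied group means. The line test called 4 genes, and 110 under each of the smaller errors, since its summed variances also count siCtrl. No result reversed. Of 74 named genes, FOSL2 (adjusted p = 0.0622) and KRT17 (adjusted p = 0.0591) no longer passed after centring. The knockdown share, an alternative added after the data were seen, moved the counts of 19 of 26 lists by over 1.5 times, all upwards; the filter moved 4 and centring 3. Depth per library is unknown, so its effect on these calls was not tested.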
